A study of Danio rerio with 9 samples.

Results

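The genes described here encode 9 transcription factors of the pharyngeal arches, read in dissected zebrafish eyes: hand2, gsc, dlx2a, dlx3b, dlx4b, dlx5a, dlx6a, sox9a and barx1. Members were the probe sets of the Affymetrix Zebrafish Genome Array whose single gene symbol in the platform annotation is one of these names. All 9 genes had a probe set, each exactly 1, among 8793 genes with a symbol of their own and 15502 probe sets that are no controls. The genes were put together with the difference between the 3 and 5 dpf eyes already known (dpf, days post fertilisation), so their differences from 3 dpf are given as values with no test. The contrast of 5 against 4 dpf was tested, although it shares the 5 dpf arrays with the contrast that was known.

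Total RNA came from whole eyes of wild-type larvae at 3, 4 and 5 dpf, with 3 arrays at each age. The labels name no other genotype and no treatment. Replicates at 3 and 5 dpf were separate biological samples by the study's methods, whereas at 4 dpf the replicates are only numbered, so that p-values with 4 dpf may measure a technical spread. The sources used here give no number of larvae per sample. Nor do they state whether the 9 arrays were normalized together. If 4 dpf was processed apart, that step and the age cannot be told apart.

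The pharyngeal arches are paired swellings on the underside of the vertebrate head. Cranial neural crest cells fill them and later build the cartilages of the jaw and gills. In the ventral part of the arches the secreted peptide Endothelin 1 acts through its receptors and the factor Mef2ca on the crest cells, and the distal-less genes dlx3b, dlx4b, dlx5a and dlx6a as well as hand2 act below this signal, while dlx2a is expressed through most of the arch crest. None of the 9 genes is specific to the arches. hand2 also acts in the heart, the pectoral fin bud and sympathetic neurons, dlx2a, dlx5a and dlx6a in the forebrain, and dlx3b and dlx4b in the ear and olfactory placodes.

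Values are log2 signals, so 1 unit is a 2-fold difference, and means are given ± SD of 3 arrays. Because different probe sets bind with different strength, levels of single genes were compared between ages of one probe set. The marker sums, the shares of single genes in them and the choice of the brightest genes do set genes side by side. They therefore depend on that strength too. The array medians lay between 5.70 and 5.79, between 55.6% and 56.0% of the probe sets of an array had a signal of at least 5, and correlations were 0.983 to 0.995 within an age and 0.964 to 0.991 between ages. Defining genes of the eye were bright at every age: the lens crystallin gene crybb1 read 14.2, 14.7 and 14.9 at 3 dpf, and of 16 measured eye markers 1, the melanin enzyme gene tyr, had a mean under 4 at every age.

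hand2, gsc, dlx2a, dlx5a and dlx6a read well above their later signals in the 3 dpf eyes and were at least 2-fold lower at both 4 and 5 dpf. dlx4b was lower at both later ages by a smaller amount, and dlx3b, sox9a and barx1 stayed close to their lowest signals at every age, apart from sox9a on 3 dpf replicate 3. The probe sets were not checked against the study's remapping of the array's probes to the genome. A flat low signal need not mean that the gene did not change. Between 3 and 5 dpf 5 of the 9 probe sets were at least 2-fold lower at 5 dpf and 0 higher, beside 3.66% of all probe sets that were lower and 4.66% that were higher by as much. Between 3 and 4 dpf 6 of the 9 were at least 2-fold lower at 4 dpf and 0 higher, beside 2.05% and 2.36% of all. The same 5 genes were past 2-fold in both comparisons, which share the 3 dpf arrays, against 1.75% of all probe sets, or 2.64% of the 9820 probe sets with a 3 dpf mean over 4. With signals under 4 set to 4, 3 members, hand2, gsc and dlx2a, were past 2-fold in each comparison. Nothing is read from the shares of all probe sets, since the members were chosen for this pattern. The median difference of the 9 was -2.19 for 5 minus 3 dpf and -2.34 for 4 minus 3 dpf, where the medians of all probe sets were 0.10 and 0.04. In tissue of mixed cells, fewer cells of a type and less RNA per cell cannot be told apart.

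**Figure D1:**
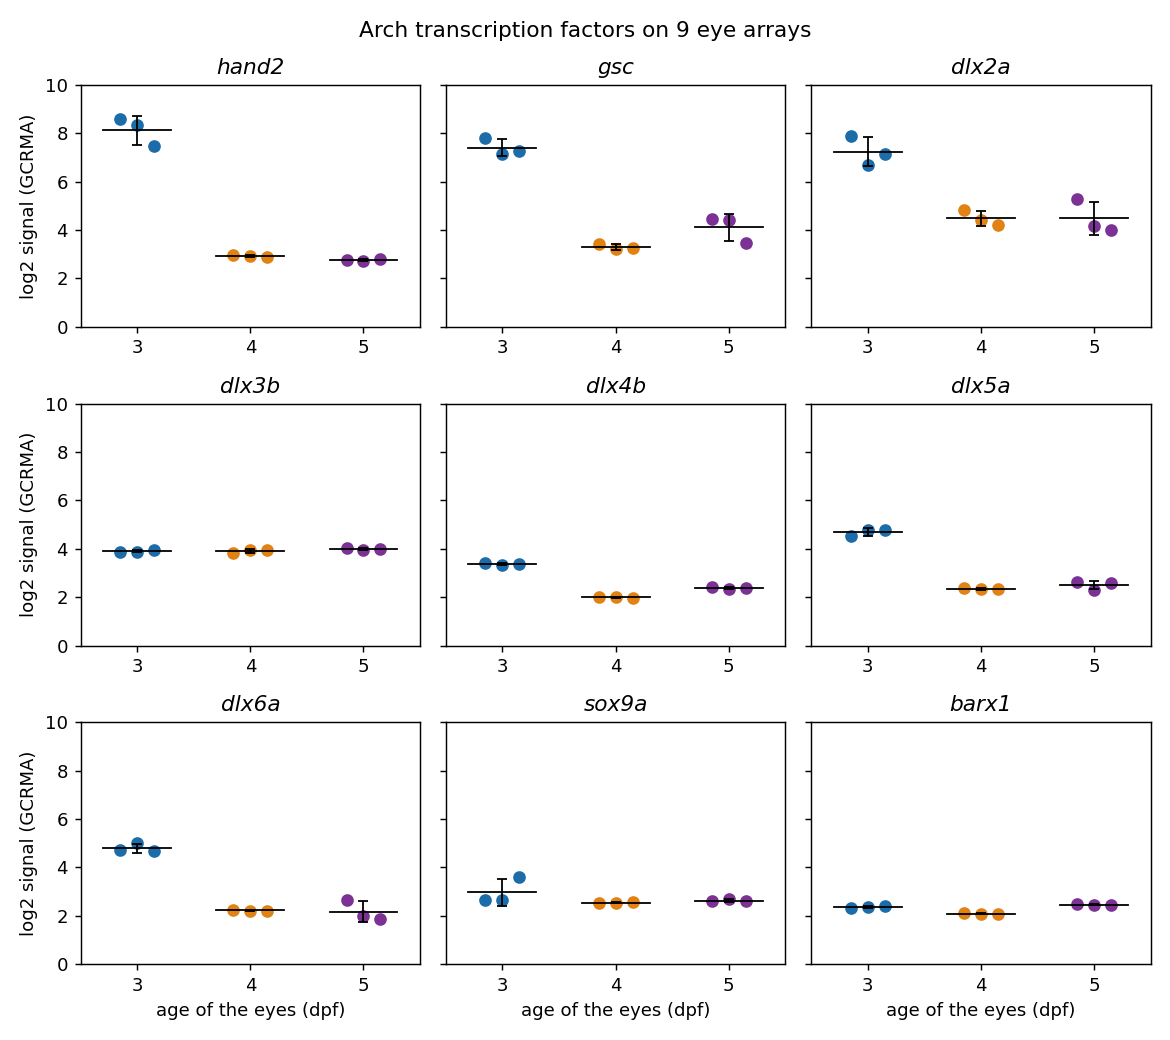
Log2 signal (vertical axis) of the 9 arch transcription factors at 3, 4 and 5 dpf (horizontal axis). Each point is 1 array, the long bar the mean of 3 arrays and the whisker the SD; hand2 lay between 7.46 and 8.60 at 3 dpf and at or under 2.96 on every later array.

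hand2, a basic helix-loop-helix factor of the ventral arches that in zebrafish is needed for the lower jaw, read 8.60, 8.35 and 7.46 on the 3 dpf arrays. It read 2.96, 2.93 and 2.89 at 4 dpf and 2.77, 2.73 and 2.81 at 5 dpf. The ages did not overlap, and the lowest 3 dpf array stood 4.65 above the highest 5 dpf array and 4.50 above the highest 4 dpf array. The means were 8.13 ± 0.60, 2.93 ± 0.03 and 2.77 ± 0.04 at 3, 4 and 5 dpf (SD, n = 3 each). Its difference was -5.36 for 5 minus 3 dpf and -5.21 for 4 minus 3 dpf, the second lowest of all 15502 probe sets in each. With signals under 4 set to 4, both differences shrank to -4.13. The 3 dpf arrays carried most of the spread, and leaving out any 1 array moved the difference from 3 dpf no further than -5.70 to -5.13 at 5 dpf and -5.55 to -4.97 at 4 dpf.

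gsc encodes Goosecoid, a homeodomain factor of the gastrula organizer that returns later in the arch crest. It read 7.79, 7.15 and 7.26 at 3 dpf, 3.44, 3.23 and 3.24 at 4 dpf and 4.46, 4.40 and 3.48 at 5 dpf. The 3 dpf arrays were all higher than the 6 later ones, and the 4 dpf arrays were the lowest. The difference of gsc was -3.29 for 5 minus 3 dpf (4.11 ± 0.55 at 5 dpf and 7.40 ± 0.34 at 3 dpf, SD, n = 3 each). For 4 minus 3 dpf it was -4.10 (3.30 ± 0.12 at 4 dpf, SD, n = 3), the fifth lowest of all probe sets in that comparison. With signals under 4 set to 4 the differences were -3.11 and -3.40. Each 5 dpf array lay above each 4 dpf array, by as little as 0.04 for 5 dpf replicate 3. This difference of 0.81 did not pass the test (limma, standard error 0.28, adjusted p = 0.13), whereas without 5 dpf replicate 3 it was 1.13 (adjusted p = 0.029), past both limits, and with signals under 4 set to 4 it was 0.29 (adjusted p = 0.77).

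The dlx genes encode homeodomain factors whose combinations set the dorsal and ventral identity of arch cells. dlx2a read 7.88, 6.69 and 7.14 at 3 dpf, 4.84, 4.43 and 4.22 at 4 dpf and 5.27, 4.18 and 4.02 at 5 dpf. All 3 dpf arrays were higher than all later arrays, and replicate 1 was the highest array of each age. The means were 7.24 ± 0.60, 4.49 ± 0.31 and 4.49 ± 0.68 (SD, n = 3 each), a difference of -2.75 from 3 dpf at either later age. Of 7 measured forebrain markers 4 had a mean under 4 at every age. tbr1b, a factor of forebrain and retinal neurons, read 8.28, 7.51 and 7.80 at 3 dpf, 7.30, 7.27 and 7.52 at 4 dpf and 7.24, 7.04 and 6.85 at 5 dpf, highest in replicate 1 at 3 and 5 dpf but not at 4 dpf. The part of forebrain tissue in the dlx2a signal was not tested.

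dlx5a and dlx6a lie next to each other in the RefSeq annotation of the zebrafish genome, with 0 protein-coding genes between them, and act together in the ventral arch below Endothelin 1. dlx5a read 4.51, 4.78 and 4.79 at 3 dpf, 2.38, 2.33 and 2.32 at 4 dpf and 2.61, 2.30 and 2.59 at 5 dpf. dlx6a read 4.70, 5.01 and 4.67 at 3 dpf, 2.25, 2.22 and 2.20 at 4 dpf and 2.67, 1.98 and 1.87 at 5 dpf. In both genes every 3 dpf array lay above every later one, and the 4 and 5 dpf arrays overlapped. For 5 minus 3 dpf the differences of dlx5a and dlx6a were -2.19 and -2.62, and for 4 minus 3 dpf -2.34 and -2.57. These sizes rest on signals near the lower end of the array: with signals under 4 set to 4 they shrank to -0.69 in dlx5a and -0.80 in dlx6a in both comparisons, under 2-fold.

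dlx3b and dlx4b are neighbours as well, also with 0 protein-coding genes between them, and in zebrafish act together in the ear placode. dlx4b read 3.43, 3.35 and 3.36 at 3 dpf, 2.02, 1.99 and 1.98 at 4 dpf and 2.42, 2.34 and 2.39 at 5 dpf. The 3 ages did not overlap, with 3 dpf the highest and 4 dpf the lowest. The difference of dlx4b was -1.38 for 4 minus 3 dpf and -0.99 for 5 minus 3 dpf, a 1.99-fold lower signal, which came to -1.12 after quantile normalization. dlx3b lay between 3.82 and 4.02 on all 9 arrays, and its means of 3.90 ± 0.05, 3.92 ± 0.08 and 3.99 ± 0.03 (SD, n = 3 each) differed by less than 0.10 between ages. Its difference for 5 minus 3 dpf was 0.09 as deposited and -0.04 after quantile normalization. Ear and olfactory markers showed no difference that passed the test in any comparison, with 0 of 4 measured genes at an adjusted p under 0.05 and at least 2-fold, although 2 had an unadjusted p under 0.05 for 5 minus 4 dpf. Of these 4 genes 3 had a mean under 4 at every age, so they say little about ear tissue.

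sox9a and barx1 act nearer to the skeleton. sox9a, one of the pair of zebrafish Sox9 genes needed to form head cartilage, read 2.65, 2.66 and 3.62 at 3 dpf, 2.55, 2.53 and 2.57 at 4 dpf and 2.60, 2.70 and 2.60 at 5 dpf. Only 3 dpf replicate 3 stood away from the other arrays, and the 3 and 5 dpf arrays overlapped. The difference of sox9a was -0.34 for 5 minus 3 dpf and -0.43 for 4 minus 3 dpf, and without 3 dpf replicate 3 it was -0.02 and -0.11. barx1, a homeobox gene of the arch mesenchyme between the forming joints, read 2.34, 2.38 and 2.4 at 3 dpf, 2.12, 2.09 and 2.07 at 4 dpf and 2.47, 2.43 and 2.47 at 5 dpf. Its differences were -0.28 for 4 minus 3 dpf and 0.08 for 5 minus 3 dpf, the second of which came to -0.04 after quantile normalization.

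Small shifts that separate the ages were common at such low signals. The 3528 probe sets with a mean under 3 had a median difference of 0.11 for 5 minus 3 dpf, with quartiles of 0.078 and 0.157, and the arrays of the 2 ages did not overlap in 87.1% of them. The difference of barx1 between 5 and 3 dpf was of this size. That of dlx3b was 0.09, but its means of 3.90 to 3.99 lie above this set. Among the 9 members, the 5 dpf arrays lay wholly below the 3 dpf arrays in 6 (13.6% of all probe sets) and wholly above in 2 (41.8%), and the 2 ages overlapped in sox9a. The 4 dpf arrays lay wholly below the 3 dpf arrays in 8 (17.6%), wholly above in 0 (29.2%) and overlapped them in dlx3b. All 6 later arrays were below all 3 dpf arrays in 6 members, hand2, gsc, dlx2a, dlx4b, dlx5a and dlx6a, as in 8.73% of all probe sets.

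**Figure D2:**
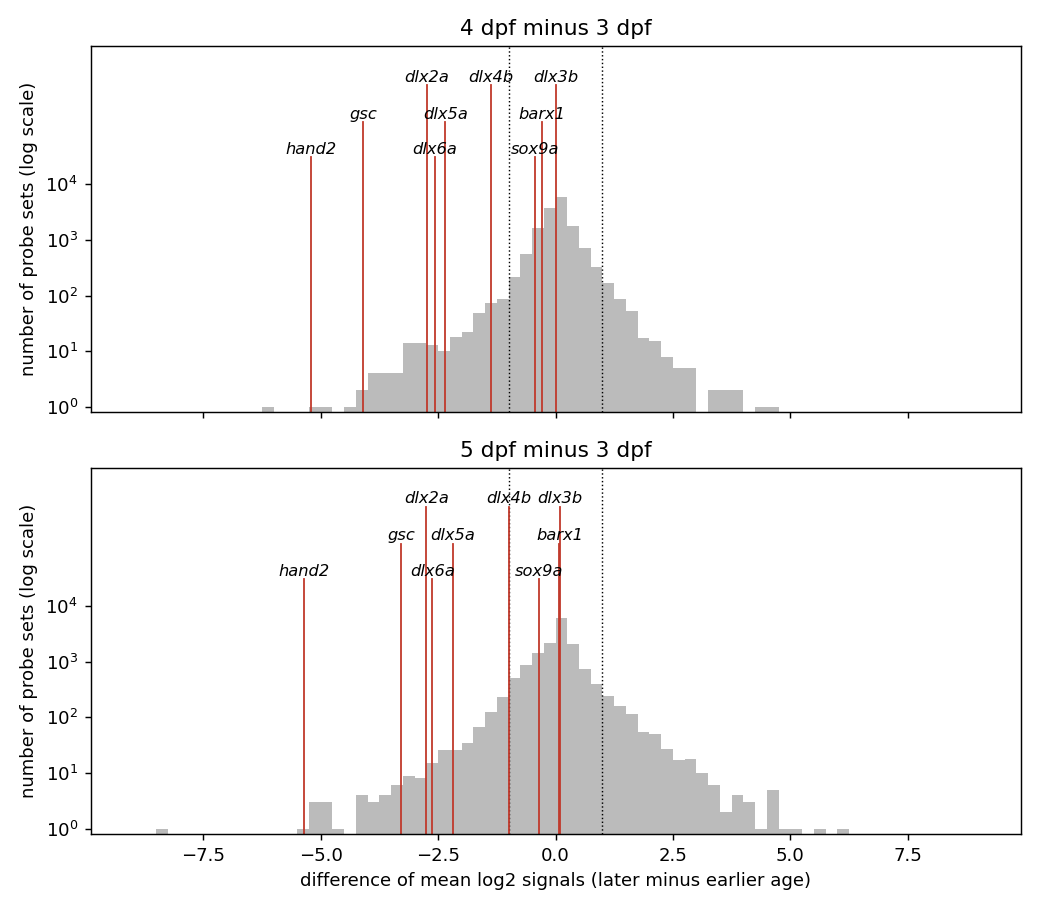
Number of probe sets (vertical axis, log scale) by the difference of mean log2 signals from 3 dpf (horizontal axis), for 4 dpf above and 5 dpf below. Grey bars count all 15502 probe sets in steps of 0.25, red lines mark the 9 members and dotted lines a 2-fold difference; hand2 stood at -5.21 and -5.36, second from the left in both.

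The next question was whether the members went on changing between 4 and 5 dpf. The 3 dpf signals do not enter these differences but do enter the estimate of spread, since the fit held all 9 arrays. Of the 9 members 0 passed an adjusted p under 0.05 together with a 2-fold difference for 5 minus 4 dpf in limma, beside 0.439% of all probe sets. An unadjusted p under 0.05 was reached by 3 members. The share of all probe sets at the unadjusted limit was not counted, here or for any list, so nothing is read from such counts. dlx4b averaged 2.38 ± 0.04 at 5 dpf and 2.00 ± 0.02 at 4 dpf (SD, n = 3 each), a difference of 0.39 (limma, standard error 0.045, adjusted p = 0.0053). barx1 averaged 2.46 ± 0.02 at 5 dpf and 2.09 ± 0.02 at 4 dpf (SD, n = 3 each), a difference of 0.36 (limma, standard error 0.041, adjusted p = 0.0052). Both passed the p limit with every 5 dpf array above every 4 dpf array, but both were under 2-fold. The upper quartile of the differences among probe sets with a mean under 3 was 0.133, which many of those probe sets exceed by definition. A quartile therefore does not set dlx4b and barx1 apart from other low signals, and a shift of low signals at 4 dpf was not tested. hand2 differed by -0.16 (limma, standard error 0.26, adjusted p = 0.75), with all 5 dpf arrays below all 4 dpf arrays. Its SD was 0.60 at 3 dpf against 0.03 at 4 dpf and 0.04 at 5 dpf, so its standard error came mainly from 3 dpf. dlx2a differed by less than 0.01 (limma, adjusted p = 0.995), dlx3b by 0.07 (adjusted p = 0.47), dlx5a by 0.15 (adjusted p = 0.43), dlx6a by -0.05 (adjusted p = 0.90) and sox9a by 0.08 (adjusted p = 0.86). The SD of sox9a was likewise largest at 3 dpf (0.55, against 0.02 at 4 dpf and 0.06 at 5 dpf), with all 5 dpf arrays above all 4 dpf arrays. For hand2 and sox9a the test therefore says little on whether 4 and 5 dpf differed. The 5 dpf arrays lay wholly below the 4 dpf arrays in 1 member (10.1% of all probe sets) and wholly above in 4 (23.5%), and the median difference of the 9 was 0.08 where that of all was 0.05.

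The pattern of hand2 over the 9 arrays was set beside that of every probe set with 1 gene symbol, by Pearson correlation. The points share arrays and fall into the 3 dpf arrays and the rest, so that a high correlation reflects mainly that gap. The 5 most alike were hapln1a (0.997), which encodes a link protein of cartilage matrix, neb (0.995), the muscle protein nebulin, cldn3d (0.994), a tight junction claudin, fibinb (0.994), a relative of a fin bud factor, and sost (0.994), the bone factor sclerostin. This probe set of hapln1a, not the brightest of its gene, averaged 5.59 at 3 dpf, 2.49 at 4 dpf and 2.59 at 5 dpf. sost averaged 5.47, 3.25 and 3.35. Among the members the correlation with hand2 was 0.98 for dlx5a and for dlx6a, 0.96 for gsc, 0.95 for dlx2a and for dlx4b, 0.47 for sox9a, 0.26 for barx1 and -0.47 for dlx3b. Over all probe sets, 1.63% reached 0.9 and 0.503% reached 0.95. Nothing is read from these shares, since the members were put together with their difference between 3 and 5 dpf known.

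The members were next set beside 80 other regulators of the arches, the cranial neural crest and the skeleton in 4 lists, of which 57 were measured. A mean under 4 at every age was found in 7 of 19 arch patterning genes and 6 of 21 crest and mesenchyme genes. The same held for 2 of 3 other dlx genes and 6 of 14 skeletal regulators. Signals this low leave little room for a fall. For 5 minus 3 dpf, 3 of the 57 were lower and 0 higher at an adjusted p under 0.05 and at least 2-fold, beside 2.39% and 2.97% of all probe sets, and their median difference was -0.26 where that of all was 0.10. For 4 minus 3 dpf, 7 were lower and 0 higher, beside 1.66% and 1.62%, with a median of -0.35 where that of all was 0.04. For 5 minus 4 dpf, 0 were lower and 1 was higher, beside 0.174% and 0.264%, with a median of 0.06 where that of all was 0.05. For 5 minus 3 dpf, leaving out 3 dpf replicate 3 gave 2 genes and leaving out 5 dpf replicate 1 gave 5. The first 2 comparisons share the 3 dpf arrays. The differences of the members from 3 dpf were counted by 2-fold alone, without a p limit. By that rule 5 of the 57 were lower and 0 higher for 5 minus 3 dpf, beside 3.66% and 4.66% of all probe sets. For 4 minus 3 dpf 8 were lower and 0 higher, beside 2.05% and 2.36%. These lists and those of tissue markers below were chosen with earlier results of these data known, so their p-values and shares are given as description.

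Of 19 measured genes of arch patterning and Endothelin 1 signalling, 0 passed both limits for 5 minus 3 dpf (8 had an unadjusted p under 0.05), 2 were lower for 4 minus 3 dpf, and 0 passed for 5 minus 4 dpf (9 had an unadjusted p under 0.05). The ligand edn1 read 4.68, 5.12 and 4.62 at 3 dpf, 5.13, 5.12 and 5.10 at 4 dpf and 5.42, 6.01 and 5.75 at 5 dpf. edn1 was highest at 5 dpf, by 0.91 over 3 dpf (limma, standard error 0.21, adjusted p = 0.0496), which is under 2-fold. This gene lies outside the rule for naming genes and was chosen after its values were seen. msx1b, a homeobox gene of distal arch tissue, fell by 1.05 at 4 dpf against 3 dpf (limma, standard error 0.15, adjusted p = 0.0060). Leaving out 3 dpf replicate 1 or 4 dpf replicate 2 took the difference to -0.99 or -0.92, under 2-fold. nkx3-2, a gene of the jaw joint, read 1.66, 1.68 and 1.65 at 4 dpf and 2.16, 3.38 and 2.86 at 3 dpf, a difference of -1.13 (limma, standard error 0.27, adjusted p = 0.034). Its call was lost without 3 dpf replicate 2 (-0.84) and without 3 dpf replicate 3 or any 1 of the 4 dpf arrays (adjusted p from 0.094 to 0.0997), and setting signals under 4 to 4 left no difference. The brightest of the list, nr2f2 and nr2f1a, nuclear receptors of the upper arch that are also active in the retina, differed by -0.74 (limma, adjusted p = 0.038) and -0.97 (adjusted p = 0.024) for 5 minus 3 dpf, both under 2-fold. For 5 minus 4 dpf they differed by -0.28 (limma, adjusted p = 0.24) and -0.46 (adjusted p = 0.093).

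Of 21 measured genes of the cranial neural crest and arch mesenchyme, 2 passed as lower for 5 minus 3 dpf and 3 for 4 minus 3 dpf. For 5 minus 4 dpf 0 passed (3 had an unadjusted p under 0.05). six2a, a homeobox gene of head mesenchyme, came closest to the members in size: it read 6.07, 5.58 and 5.82 at 3 dpf, 2.74, 2.77 and 2.72 at 4 dpf and 2.58, 2.55 and 2.55 at 5 dpf. Against 3 dpf, six2a fell by 3.26 at 5 dpf (limma, standard error 0.13, adjusted p = 0.0013) and fell by 3.08 at 4 dpf (standard error 0.11, adjusted p = 2.2e-05). With signals under 4 set to 4 both differences were -1.82 and still passed (limma, adjusted p = 0.017 and 0.0011). prrx1b, a homeobox gene of head and limb mesenchyme, fell by 1.18 at 5 dpf (limma, standard error 0.16, adjusted p = 0.015) and fell by 1.19 at 4 dpf (standard error 0.15, adjusted p = 0.0041). The first of these was lost without 3 dpf replicate 3 (adjusted p = 0.068). hoxa2b, which sets the identity of the second arch, read 2.17, 2.17 and 2.13 at 4 dpf and 3.45, 3.68 and 2.95 at 3 dpf, a difference of -1.21 (limma, standard error 0.17, adjusted p = 0.0068). All these signals are under 4, so that setting such signals to 4 left no difference. The brightest of the list, tfap2a and tfap2b, factors of early crest and of retinal amacrine cells, differed by -0.14 each between 5 and 4 dpf (limma, adjusted p = 0.53 and 0.68).

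Of the 3 other dlx genes, dlx4a was lower at both later ages. It read 5.88, 6.66 and 6.09 at 3 dpf, 3.87, 3.85 and 3.78 at 4 dpf and 3.92, 3.94 and 3.90 at 5 dpf, with every 3 dpf array above every later array. Against 3 dpf, dlx4a fell by 2.29 at 5 dpf (limma, standard error 0.21, adjusted p = 0.0067) and fell by 2.38 at 4 dpf (standard error 0.18, adjusted p = 7.0e-04), and kept both calls whichever array was left out. dlx1a, the neighbour of dlx2a with 0 protein-coding genes between, lay between 2.29 and 2.99 on all arrays. It differed by -0.48 for 4 minus 3 dpf (limma, standard error 0.088, adjusted p = 0.015). For 5 minus 4 dpf it was 0.36 higher (limma, standard error 0.088, adjusted p = 0.049), and both differences were under 2-fold. Signals this low do not tell whether dlx1a differed from dlx2a. dlx2b lay between 2.16 and 2.32 throughout.

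Of 14 measured skeletal regulators, 0 passed both limits for 5 minus 3 dpf (3 had an unadjusted p under 0.05), 1 was lower for 4 minus 3 dpf and 1 was higher for 5 minus 4 dpf. Both calls were runx3, a factor of cartilage maturation that also acts in neurons and blood cells. It read 4.99, 4.43 and 4.43 at 3 dpf, 3.06, 2.96 and 2.55 at 4 dpf and 4.43, 3.84 and 3.71 at 5 dpf, lowest at 4 dpf. runx3 differed by -1.76 for 4 minus 3 dpf (limma, standard error 0.25, adjusted p = 0.0061) and by 1.14 for 5 minus 4 dpf (standard error 0.25, adjusted p = 0.035). The second call was lost in 7 of 9 fits that left out 1 array and kept only without 3 dpf replicate 1 or 5 dpf replicate 3 (adjusted p from 0.032 to 0.12 over the 9). With signals under 4 set to 4 both calls were lost, at -0.62 (limma, adjusted p = 0.14) for 4 minus 3 dpf and 0.14 for 5 minus 4 dpf. sox9b, the partner of sox9a that is also expressed in the retina, read 8.45, 8.75 and 8.77 at 3 dpf, 8.44, 8.51 and 8.64 at 4 dpf and 8.06, 8.08 and 8.59 at 5 dpf, and was named after its values were seen. wwp2 and sec23a, the brightest of the list, differed by -0.30 (limma, adjusted p = 0.15) and -0.17 (adjusted p = 0.54) between 5 and 3 dpf.

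**Figure D3:**
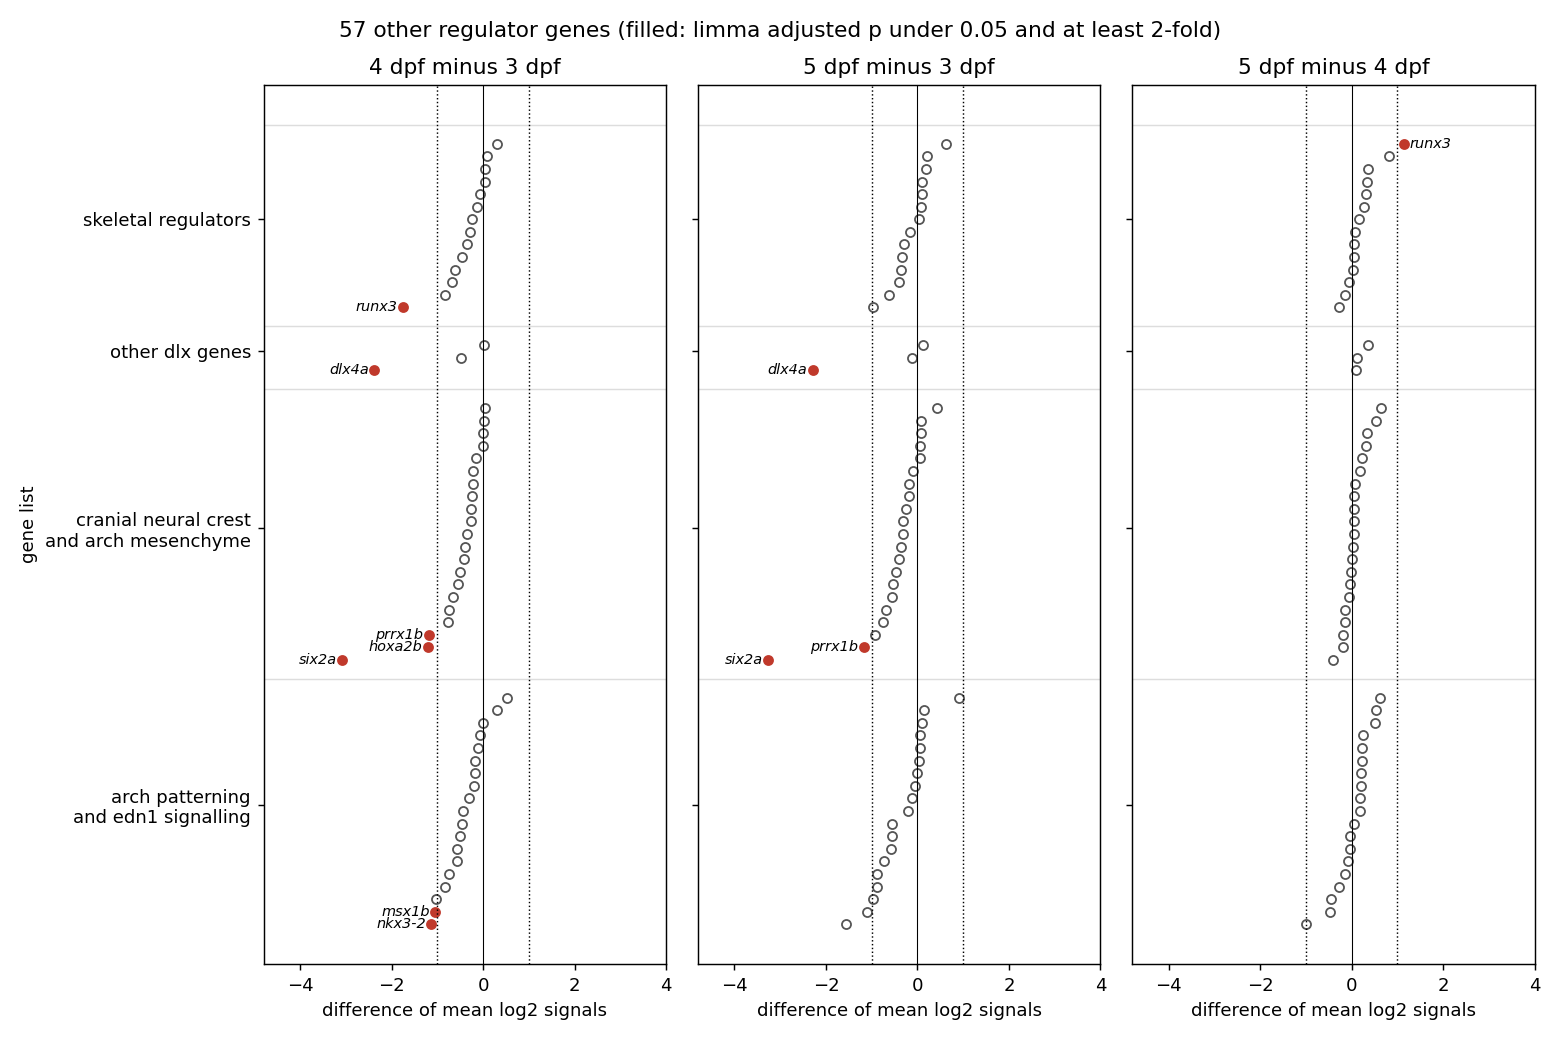
Difference of mean log2 signals (horizontal axis) of 57 other arch and skeletal regulators, 1 point per gene, grouped by list (vertical axis), for 4 minus 3 dpf, 5 minus 3 dpf and 5 minus 4 dpf. Filled points passed an adjusted p under 0.05 and 2-fold (dotted lines): 7, 3 and 1 genes, with six2a at -3.08 and -3.26 and dlx4a at -2.38 and -2.29 from 3 dpf.

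Summed marker signals of cartilage, skeletal muscle, heart, pectoral fin and skin were also highest at 3 dpf. Those of the ear and olfactory list and of autonomic neurons overlapped between 3 dpf and both later ages. However, 3 of 4 measured ear and olfactory genes and 2 of 4 autonomic genes had a mean under 4 at every age. The autonomic sum came mostly from ret, with means of 7.50, 7.70 and 7.92 at 3, 4 and 5 dpf. Nothing is read from this overlap for either tissue. The matrix genes of cartilage, the tissue that arch crest forms, were mostly lower at the later ages. Of 13 measured, 9 passed as lower and 0 as higher for 5 minus 3 dpf, and 8 and 0 for 4 minus 3 dpf. For 5 minus 4 dpf 0 passed in either direction (limma, 8 had an unadjusted p under 0.05). Their summed linear signal lay between 23889 and 32584 at 3 dpf, between 4078 and 4928 at 4 dpf and between 2735 and 3492 at 5 dpf. matn1, which encodes the cartilage protein matrilin 1, fell by 8.36 at 5 dpf (limma, standard error 0.21, adjusted p = 4.7e-04) and fell by 6.03 at 4 dpf (standard error 0.63, adjusted p = 0.0023). For 5 minus 3 dpf the differences were -5.00 for the brightest probe set of hapln1a (limma, adjusted p = 0.0043), -3.21 for the type II collagen gene col2a1a (adjusted p = 0.0051) and -5.15 for col10a1a, a collagen of mature cartilage and forming bone (adjusted p = 0.020), a call that was lost in 5 of 6 fits without 1 array and kept only without 5 dpf replicate 1 (adjusted p from 0.012 to 0.072). For 4 minus 3 dpf they were -3.92 for hapln1a (limma, adjusted p = 9.8e-04), -2.65 for the chondromodulin gene cnmd (adjusted p = 0.0074) and -2.55 for col2a1a (adjusted p = 0.0016). For 5 minus 4 dpf col2a1a differed by -0.66 (limma, adjusted p = 0.15) and col11a1a, a fibrillar collagen, by -0.53 (adjusted p = 0.14). Another 3 cartilage genes were more than 2-fold lower at 5 than at 4 dpf without passing the test, with differences of -3.01 in col10a1a (limma, adjusted p = 0.060), -2.33 in matn1 (adjusted p = 0.069) and -1.09 in hapln1a (adjusted p = 0.087). Within the 3 dpf arrays the order differed: the cartilage sum was highest in replicate 3, the array in which hand2 was lowest and sox9a highest. The pectoral fin sum (1523, 1052 and 700.0), most of it from the fin gene and2 (10.31, 9.78 and 9.10), and the heart gene myl7 ran in the order of hand2. The heart sum (1017, 336 and 616) and the fin gene fgf10a (4.00, 3.88 and 4.44) did not. Such orders of only 3 arrays were looked at after the values were seen, and nothing is read from them. The part of cartilage or jaw tissue in the signals of the members was not tested.

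Other tissues in which these genes act were read in the same way. Of 10 measured heart markers 0 passed for 5 minus 3 dpf (limma, 4 had an unadjusted p under 0.05). For 4 minus 3 dpf 1 passed as lower, the troponin gene tnnt2a. In each of these comparisons 4 were at least 2-fold lower, and 6 of the 10 had a mean under 4 at every age. The heart sum lay between 336 and 1017 at 3 dpf, 89.9 and 166 at 4 dpf and 87.1 and 244 at 5 dpf. The cardiac light chain gene myl7 read 8.77, 5.99 and 5.23 at 3 dpf, 2.64, 2.64 and 2.63 at 4 dpf and 2.28, 5.65 and 2.81 at 5 dpf. At 3 dpf the arrays ran in the order of hand2 in myl7 and in the heart gene cmlc1. They did not in the heart gene vmhc (8.4, 7.5 and 9.0) or in tnnt2a (5.4, 4.3 and 4.4). The 1 later array with a high myl7, 5 dpf replicate 2, also had the highest later signals of cmlc1 (4.90) and tnnt2a (4.29). Its vmhc (6.81) lay within the range of the other later arrays, and its hand2 read 2.73. This is a single array, with hand2 near the lower end, and nothing is read from it or from orders of 3 arrays. The part of heart tissue in the hand2 signal was not tested. The cardiac regulators nkx2.5, gata4, gata5, gata6 and tbx20 lay between 1.70 and 2.92 on every array. Of 9 measured pectoral fin markers 3 passed as lower and 0 as higher in each comparison with 3 dpf. These were the actinodin genes and1 and and2 of the fin fold and fgf10a, and 6 of the 9 had a mean under 4 at every age. The fin sum lay between 700 and 1523 at 3 dpf, 98.9 and 223 at 4 dpf and 146 and 270 at 5 dpf. Of 4 measured markers of autonomic neurons, th and dbh, which mark sympathetic neurons, lay between 1.48 and 2.79 throughout, and gata3 was lower for 4 minus 3 dpf (-1.20, limma, adjusted p = 0.011).

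Skeletal muscle and skin markers also moved. Of 16 muscle markers 8 passed as lower for 5 minus 3 dpf and 12 for 4 minus 3 dpf, with 0 higher in each. In each comparison 12 were at least 2-fold lower. The muscle sum lay between 6401 and 8534 at 3 dpf, 795 and 991 at 4 dpf and 581 and 2048 at 5 dpf. Of 8 skin markers 2 passed as lower for 5 minus 3 dpf and 1 for 4 minus 3 dpf. The skin sum lay between 42364 and 50621 at 3 dpf, 25963 and 30822 at 4 dpf and 19416 and 25146 at 5 dpf. The forebrain sum went the other way, with 3009 to 5056 at 3 dpf, 6545 to 7365 at 4 dpf and 6133 to 9407 at 5 dpf, but gad1b, an enzyme of GABA synthesis in forebrain and retina alike, made up 85.4% to 94.0% of it and was higher for 5 minus 3 dpf (1.19, limma, adjusted p = 0.0497). Without gad1b the sum lay between 438 and 606 at 3 dpf, 565 and 619 at 4 dpf and 441 and 632 at 5 dpf, and tbr1b differed by -0.82 for 5 minus 3 dpf (limma, adjusted p = 0.074). In this remainder gad2 averaged 7.90, 8.65 and 8.59 at 3, 4 and 5 dpf, and tbr1b 7.86, 7.36 and 7.04. The overlap of these sums therefore does not mean that each gene stayed level. The sum of 16 eye markers lay between 129798 and 141901 at 3 dpf, 189323 and 194720 at 4 dpf and 173564 and 186435 at 5 dpf. The bright cone gene pde6h, with means of 12.50, 14.85 and 15.37 at 3, 4 and 5 dpf, is part of this sum. The sum without pde6h was not computed, so its share of the rise at either later age is not given. The median difference of the 16 was 0.13 for 5 minus 3 dpf, where that of all probe sets was 0.10. For 4 minus 3 dpf it was 0.40, where that of all was 0.04. How far any of these tissues carried the members was not tested.

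**Figure D4:**
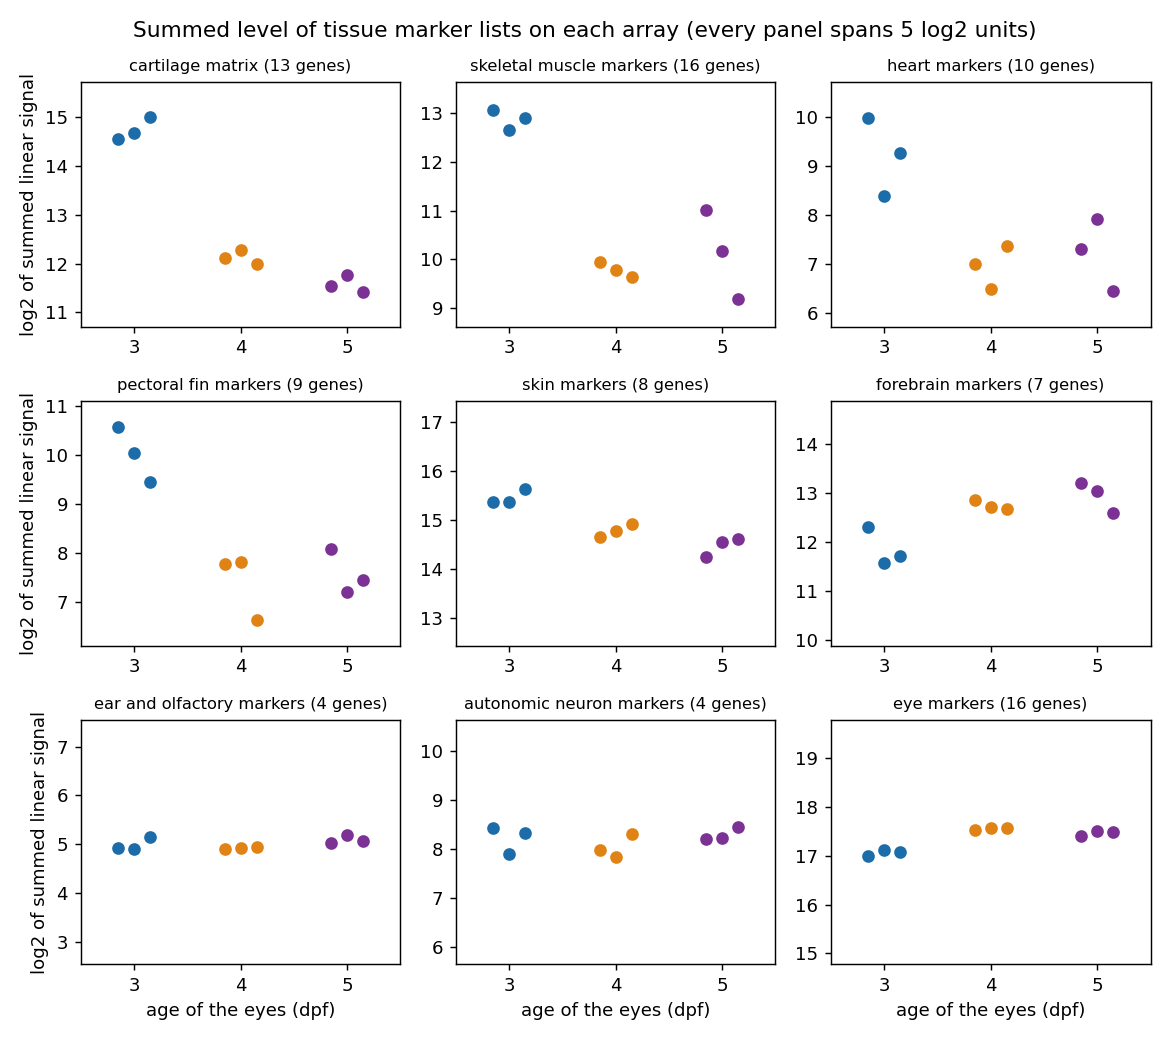
Log2 of the summed linear signal of 9 tissue marker lists (vertical axis, each panel spanning 5 log2 units) on each array (points) at 3, 4 and 5 dpf (horizontal axis). The cartilage, skeletal muscle, heart, pectoral fin and skin sums of all 3 dpf arrays lay above those of all later arrays. The forebrain sum, at least 85.4% of it gad1b, lay below on all 3 dpf arrays. So did the eye sum, in which the share of pde6h was not computed.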

How the data were processed

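Total RNA from dissected eyes was labelled in 2 cycles and hybridised to Affymetrix Zebrafish Genome Arrays. The authors made the deposited log2 signals, 1 per original probe set and array, with GCRMA (version not given in the sources used here). Arrays have no read depth, and their number, 3 per age, limits the precision. At most 114 values were identical on a pair of arrays. No further normalization was applied.

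Symbols came from the platform annotation: of 15617 probe sets 10802 carry 1 symbol, 135 several and 4680 none, and 115 control probe sets were left out. R 4.3.3 and limma 3.58.1 (lmFit, eBayes, Benjamini-Hochberg over 15502 probe sets, two-sided) gave the tests, with the 6 arrays at 3 and 5 dpf for that contrast and all 9 arrays for contrasts with 4 dpf. A probe set passed at an adjusted p under 0.05 and 2-fold. A gene of a list was read on its probe set with the highest mean. The code was tested on simulated data.

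The members, gene lists and tests were chosen with earlier results of these data known. The genes named were the members, the 5 probe sets most like hand2, and, per list and comparison, up to 4 that passed, or the 2 brightest. Marker genes of other tissues and of the eye, edn1, sox9b, dlx2b and the cartilage genes below the p limit were named after their values were seen. Arrays of the same replicate number at 3 and 4 dpf deviated together from their group means (correlations 0.60, 0.50 and 0.44), although the labels state no pairing. RefSeq names came from assembly GRCz12tu, whose coordinates were not used. Alternatives are given at the end.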

Additional observations from a re-analysis of the deposited data

How the results depend on the processing

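The alternatives were quantile normalization, median centring, signals under 4 set to 4, a filter that keeps means of 5 or more, eBayes with trend and robust settings, a replicate block, all 9 arrays in the fit of 5 minus 3 dpf, any probe set of a gene, and leaving out each array. With signals under 4 set to 4, the members at least 2-fold lower numbered 3 for 5 minus 3 dpf (5 as reported) and 3 for 4 minus 3 dpf (6 as reported), and the other regulators that passed numbered 4 for 4 minus 3 dpf and 0 for 5 minus 4 dpf. That step left 13 of 27 member differences without a value, as every array compared then stood at 4. With a mean of at least 5 required, only dlx2a remained, 1 member in each comparison with 3 dpf, since hand2 and gsc were filtered out, and 1, 2 and 0 regulators passed for 5 minus 3, 4 minus 3 and 5 minus 4 dpf. Quantile normalization took the regulators for 5 minus 4 dpf to 0. It also turned dlx3b to -0.0196, sox9a to -0.0172 and dlx4a to -0.0172 for 5 minus 4 dpf, and median centring turned dlx2a to 0.0193. None of these 4 passed the test in either form.

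Without 1 array, the members past 2-fold numbered 5 to 6 for 5 minus 3 dpf and 6 to 6 for 4 minus 3 dpf, and 0 to 1 passed for 5 minus 4 dpf, the 1 being gsc. The regulators numbered 2 to 5, 5 to 7 and 0 to 1 in the same order. Differences that turned sign ran from -0.39 to 0.23 in dlx2a, -0.30 to 0.10 in dlx6a and -0.286 to 0.0396 in tfap2b for 5 minus 4 dpf, and from -0.346 to 0.0196 in sec23a for 5 minus 3 dpf. With the replicate block the counts were 5, 6 and 0 for members and 3, 7 and 1 for regulators, the same as without it, and no call changed among the members and the genes named by rule. Calls on single marker genes of other tissues were not repeated under the alternatives. For 5 minus 3 dpf the same-numbered arrays had correlations of 0.54, 0.01 and 0.04, and for 5 minus 4 dpf of 0.72, -0.07 and -0.03. Replicate 1 thus deviated together across ages. Replicates 2 and 3 instead reached 0.46 for 5 minus 3 dpf and 0.53 for 5 minus 4 dpf with an array of another number. A block by replicate number does not cover that structure. Causes were not tested. Low signals limit the precision of dlx3b, dlx4b, sox9a and barx1 at every age, and of hand2, gsc, dlx5a and dlx6a after 3 dpf.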
